A study of Mus musculus with 4 samples.

Results

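The genes described here mark dendritic cells and macrophages, the antigen-presenting and the scavenging cells of the myeloid lineage. They are 35 genes named as a list, out of 23462 genes named on the arrays: 11 dendritic cell genes, 5 genes that both cell types share and 19 macrophage and monocyte genes. A gene belongs to the list when a non-control probe of the array carries one of its transcripts. All 35 had a probe, and 51 probes carried them. The rule for the list names genes and uses no measured value, but the names were put together with earlier results of these data known.

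RNA came from bone marrow-derived dendritic cells (BMDCs), cells grown from the femur marrow of male C57BL/6J wild-type mice in MEM supplemented with GM-CSF (granulocyte macrophage colony-stimulating factor, 10 ng/ml) and FBS (10%), and collected on day 6. There were 4 conditions with 1 single-colour array each: medium alone, LPS (lipopolysaccharide of bacteria) at 100 ng/ml, LA at 20 mM, and LPS with LA at the same doses. The labels call LA L-(+)-LA and the study's title speaks of lactate; stimulation lasted 4 h, and no time was given for medium. The labels name no sorting of the cells and no number or age of mice, and do not say how many cultures lie behind an array. Each RNA is thus of a whole marrow culture or a pool of them, and each comparison sets 1 array against 1 array. With 1 array per condition there is no spread between cultures and no test, and every difference below describes these arrays. In RNA of a whole culture, fewer cells of a type and less RNA per cell cannot be told apart.

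Dendritic cells and macrophages arise from marrow progenitors under the control of a few transcription factors. PU.1, encoded by Spi1, is needed for the whole myeloid lineage, and C/EBP factors act with it. ZBTB46 is a hallmark of classical dendritic cells, and BATF3 and ID2 are required for the branch of them that cross-presents antigen and carries the chemokine receptor XCR1. MAF, the receptor CSF1R and a set of scavenger and complement genes are typical of macrophages. Marrow cultured with GM-CSF is known to hold cells of both kinds.

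Levels are given as relative signal, the background-subtracted brightness of a gene's probe as a multiple of the 75th percentile of its array, always in the order medium, LPS, LA, and LPS with LA. Differences are on the log2 scale, where 1 unit is 2-fold, and a gene counts as higher or lower from 2-fold upward if Agilent's software marked its probe as well above background on each of the 2 arrays. Levels of different genes come from different probes and are not compared. Between 56.5% and 64.1% of the 59305 non-control spots per array were well above background, and 0 were saturated. Of 300 probes printed 10 times, the spots differed by a median SD of 0.051 to 0.054 log2 units, which is spot error and not error between cultures. For the few such probes with a signal under 50 that were well above background (4 to 11 per array) the SD was 0.21 to 0.32, and Zbtb46, Flt3, Dpp4, Batf3, Mertk and Marco had a signal under 50 on at least 1 array. Of the 35 genes, 32 were well above background on all 4 arrays and 3 on none: Xcr1, Itgae and Cd163.

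**Figure D1:**
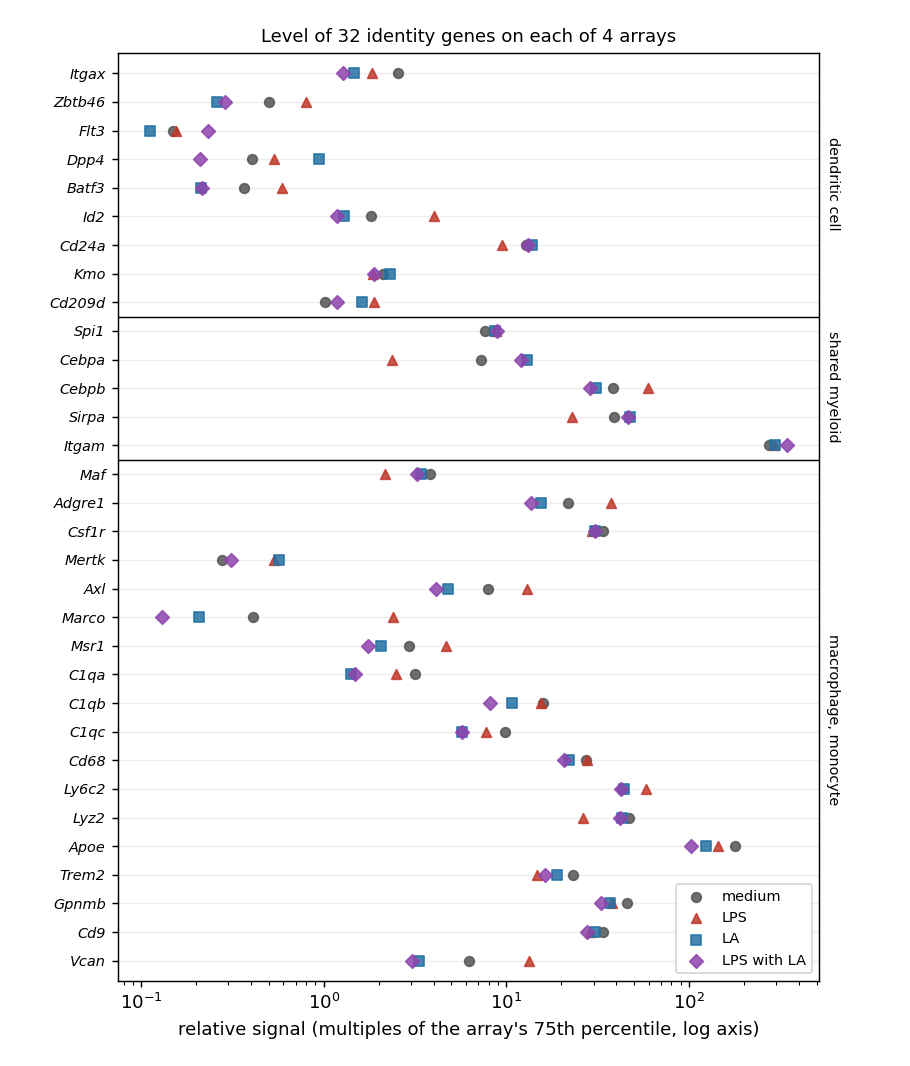
Relative signal (multiples of the array's 75th percentile, log axis) of the 32 measured identity genes, with 1 point for each of the 4 arrays. For 16 genes the lowest point is LPS with LA, and for 12 the highest is LPS; positions of different genes on the axis are not comparable.

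The sequences just upstream of 6 genes are shown because they belong to members that differed in the same direction in a comparison. Axl, Marco, Batf3 and Zbtb46 were at least 2-fold lower with LPS and LA than with LPS. C1qb and C1qc, neighbours in the complement cluster, read lower with LA, but by less than 2-fold. Each is the 250 bases before the gene's start, 5′ to 3′ along the gene, from RefSeq on GRCm38.p6. Capitals mark matches on either strand to the short motifs searched.
Axl: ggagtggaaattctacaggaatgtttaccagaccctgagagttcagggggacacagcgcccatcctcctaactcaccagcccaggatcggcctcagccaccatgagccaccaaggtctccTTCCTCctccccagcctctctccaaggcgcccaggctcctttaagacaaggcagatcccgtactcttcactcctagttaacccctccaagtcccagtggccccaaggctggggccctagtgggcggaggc
Marco: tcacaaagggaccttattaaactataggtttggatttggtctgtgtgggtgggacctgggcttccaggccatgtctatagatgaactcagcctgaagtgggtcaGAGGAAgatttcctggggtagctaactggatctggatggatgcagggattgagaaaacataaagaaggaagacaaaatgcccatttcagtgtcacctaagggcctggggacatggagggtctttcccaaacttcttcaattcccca
Batf3: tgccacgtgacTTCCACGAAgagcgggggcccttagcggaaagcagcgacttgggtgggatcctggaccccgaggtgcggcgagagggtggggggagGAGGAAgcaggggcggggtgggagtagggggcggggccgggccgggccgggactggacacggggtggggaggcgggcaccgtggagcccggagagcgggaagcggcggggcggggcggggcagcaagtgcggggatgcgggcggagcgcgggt
Zbtb46: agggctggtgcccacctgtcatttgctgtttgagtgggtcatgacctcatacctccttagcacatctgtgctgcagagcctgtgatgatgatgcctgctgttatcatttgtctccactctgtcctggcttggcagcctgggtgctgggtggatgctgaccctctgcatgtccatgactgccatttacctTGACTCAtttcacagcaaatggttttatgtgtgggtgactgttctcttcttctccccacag
C1qb: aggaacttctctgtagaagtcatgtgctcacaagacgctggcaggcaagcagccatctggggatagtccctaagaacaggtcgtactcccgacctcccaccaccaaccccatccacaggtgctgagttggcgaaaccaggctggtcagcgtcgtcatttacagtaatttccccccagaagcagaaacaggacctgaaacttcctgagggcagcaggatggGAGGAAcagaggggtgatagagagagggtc
C1qc: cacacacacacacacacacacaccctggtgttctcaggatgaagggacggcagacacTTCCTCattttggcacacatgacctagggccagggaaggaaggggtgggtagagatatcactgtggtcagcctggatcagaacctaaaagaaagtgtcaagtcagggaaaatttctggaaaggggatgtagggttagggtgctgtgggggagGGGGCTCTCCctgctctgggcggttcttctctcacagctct

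These windows lie at chr7:25788734-25788983 on the minus strand (Axl), chr1:120505025-120505274 on the minus strand (Marco), chr1:191098164-191098413 on the plus strand (Batf3), chr2:181424389-181424638 on the minus strand (Zbtb46), chr4:136886201-136886450 on the minus strand (C1qb) and chr4:136892915-136893164 on the minus strand (C1qc). RefSeq windows were found for 26 of the 35 genes, 29 windows in all. The string GAGGAA, the core of sites that PU.1 and related factors bind, was in 15 of the 29 windows of 13 genes and in 23.3% of 32851 windows of all genes. It stands in 5 of the printed windows as GAGGAA or its complement TTCCTC, and Zbtb46 has none. The AP-1 string TGANTCA was in 4 of the 29 windows (Cd68, Itgax, Trem2 and Zbtb46) and in 6.75% of all windows. The C/EBP string TTGCNNAA (Cd68; 9.56% of all windows), the NF-kB motif (C1qc; 3.9%), the interferon string GAAANNGAAA (Dpp4; 2.98%) and the STAT string TTCNNNGAA (Batf3; 7.02%) were each in 1 of the 29. No match overlapped another in the printed windows. A match describes letters only, and a window without one says nothing about a factor.

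Among the dendritic cell transcription factors, Zbtb46, Batf3 and Id2 shared a pattern, highest with LPS and below medium on both arrays with LA. Zbtb46 had a relative signal of 0.502, 0.798, 0.260 and 0.289. A second Zbtb46 probe, for the same transcript, was not well above background on any array, so these values rest on 1 probe. Batf3, a partner of JUN and IRF factors, stood at 0.367, 0.589, 0.212 and 0.214. Id2, an inhibitor of helix-loop-helix factors, stood at 1.81, 4.03, 1.29 and 1.17. In each of the 3 genes the LPS array was the highest, medium was second, and the 2 arrays with LA lay below medium. The log2 difference of LPS from medium was 0.67 for Zbtb46, 0.68 for Batf3 and 1.15 for Id2, so that of the 3 only Id2 passed 2-fold. With LA on top of LPS all 3 were over 2-fold lower than with LPS, by 1.47 for Zbtb46, 1.46 for Batf3 and 1.78 for Id2 on the log2 scale. With LA alone they stood at -0.95, -0.79 and -0.49 against medium, short of 2-fold.

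Surface molecules of dendritic cells did not share that pattern. Itgax, the integrin chain that is the usual marker of these cells in culture, was at 2.55, 1.84, 1.47 and 1.27, highest in medium and lowest with LPS and LA. A second Itgax probe, also well above background on all 4 arrays, read 1.20, 0.899, 0.768 and 0.956, lowest with LA alone. With LPS and LA it gave 0.09 against LPS and 0.32 against LA, where the brightest probe gave -0.53 and -0.21. Cd24a, a glycoprotein of the surface, was at 12.8, 9.51, 13.8 and 13.2, lowest with LPS. Neither gene differed by 2-fold in any of the 4 comparisons. Kmo, an enzyme of tryptophan breakdown, was at 2.10, 1.85, 2.30 and 1.89, within 0.28 log2 units in each comparison. A second Kmo probe, also well above background on all 4 arrays, gave 0.81 for LA against medium and 0.98 for LPS with LA against LPS. Cd209d, a C-type lectin related to DC-SIGN, was at 1.02, 1.88, 1.62 and 1.18, higher with either agent alone than in medium and between them and medium with both, again within 2-fold. A second Cd209d probe, for the same transcript, was not well above background on any array.

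Flt3 and Dpp4 had the lone calls of the dendritic group in the comparison of LPS with LA against LA. Flt3, the receptor for the growth factor that drives dendritic cells in the body, was at 0.149, 0.155, 0.112 and 0.233, with a log2 difference of 1.06 between LPS with LA and LA. Its signal was under 50 on every array, where spot error was largest. Dpp4, a surface peptidase, was at 0.403, 0.536, 0.938 and 0.210, highest with LA alone and lowest with both agents. Its difference was 1.22 for LA against medium and -2.16 for LPS with LA against LA. A second Dpp4 probe read 0.196, 0.175 and 0.192 with medium, LPS and LPS with LA and was not well above background with LA, so the high LA value rests on 1 probe. Xcr1 and Itgae, markers of the cross-presenting branch, were not well above background on any array.

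Of the genes shared by both cell types, Spi1 stayed near its level in medium and the 2 C/EBP factors had opposite orders. Spi1 was at 7.59, 8.72, 8.64 and 8.83, with the lowest value in medium and a difference of 0.20 log2 units between LPS and medium. Cebpa, a factor of myeloid progenitors and granulocytes, was at 7.22, 2.36, 12.9 and 12.1. Cebpb, a factor of activated macrophages, was at 38.4, 59.5, 30.9 and 28.6. Cebpa was lowest and Cebpb highest with LPS alone, and both arrays with LA lay on the other side of medium. For Cebpa the log2 difference was -1.61 for LPS against medium, 0.84 for LA against medium and 2.36 for LPS with LA against LPS. For Cebpb these differences were 0.63, -0.31 and -1.06.

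Sirpa, the inhibitory receptor that binds CD47, followed the order of Cebpa with 38.6, 22.8, 47.5 and 46.2. It was 1.02 log2 units higher with LPS and LA than with LPS, just past 2-fold. Itgam, an integrin chain of myeloid cells, was at 273, 292, 295 and 344 highest with LPS and LA, where it was 0.24 log2 units above LPS alone. A second Itgam probe, for another transcript, gave -0.49 for LPS against medium and 0.90 for LPS with LA against LPS.

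Among the macrophage genes, the 4 surface receptors Marco, Msr1, Axl and Adgre1 were highest with LPS and below medium on both arrays with LA. Marco, a collagenous scavenger receptor for bacteria and particles, was at 0.408, 2.40, 0.208 and 0.129. Msr1, the class A scavenger receptor, was at 2.93, 4.65, 2.06 and 1.74. Axl, a receptor tyrosine kinase that recognises apoptotic cells through GAS6, was at 7.88, 12.96, 4.78 and 4.09. Adgre1, a macrophage adhesion receptor, was at 21.8, 37.2, 15.5 and 13.6. In all 4 genes the order was LPS, medium, LA, and LPS with LA, from high to low. Marco was 5.88-fold higher with LPS than in medium and 18.5-fold lower with LPS and LA than with LPS, from a signal that was under 50 on both arrays with LA. With normexp, another background correction, which adds an offset of 50, these Marco differences were 1.91 and -2.36 on the log2 scale. The other receptors were 0.67 to 0.77 log2 units higher with LPS than in medium. Against LPS, they were lower with LPS and LA by 1.41 (Msr1), 1.66 (Axl) and 1.45 (Adgre1). Mertk, the relative of Axl, had another order, with 0.278, 0.535, 0.566 and 0.311: each agent alone was near 2-fold above medium (0.94 for LPS and 1.02 for LA), and both together lay near medium.

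Vcan, a matrix proteoglycan made by monocytes, resembled the scavenger receptors with 6.24, 13.3, 3.31 and 3.02. It was 1.09 log2 units higher with LPS than in medium and 2.14 lower with LPS and LA than with LPS. All 3 of its probes gave both differences past 2-fold in the same direction. Ly6c2, a surface antigen of inflammatory monocytes, was at 42.7, 57.9, 44.0 and 42.2, highest with LPS and alike on the other 3 arrays. Lyz2, lysozyme, was at 47.0, 26.4, 42.9 and 42.0, lowest with LPS. Maf was at 3.84, 2.15, 3.40 and 3.26, also lowest with LPS. Ly6c2, Lyz2 and Maf stayed within 2-fold in all 4 comparisons.

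The 3 chains of complement C1q, which opens the classical pathway, were lower on both arrays with LA than on those without. C1qa was at 3.14, 2.50, 1.41 and 1.47. C1qb was at 15.8, 15.5, 10.7 and 8.10. C1qc was at 9.86, 7.74, 5.74 and 5.74. All 3 were highest in medium. The difference of LA from medium was -1.15 for C1qa, -0.55 for C1qb and -0.78 for C1qc, and that of LPS with LA from LPS was -0.76, -0.93 and -0.43, so C1qa with LA alone was the sole call among them.

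The lipid and lysosome genes of macrophages and Csf1r stayed within 2-fold by their brightest probes. Apoe, the lipid carrier, was at 177, 144, 124 and 103, within 2-fold in each comparison and lowest with LPS and LA. Trem2, a lipid-sensing receptor, was at 23.3, 14.6, 18.9 and 16.3, and Gpnmb, a glycoprotein of lysosome-rich macrophages, at 45.5, 37.6, 36.9 and 33.1. Cd9, a tetraspanin, was at 33.6, 28.8, 30.7 and 27.6, and Cd68, a lysosomal membrane protein, at 27.3, 27.7, 22.0 and 20.6. Csf1r, the receptor that keeps macrophages alive, was at 33.9, 29.2, 30.6 and 30.7. A second Csf1r probe read 34.6, 15.8, 34.5 and 33.5, a difference of -1.13 with LPS against medium and 1.09 for LPS with LA against LPS. Cd163, a scavenger receptor for haemoglobin, was not well above background on any array.

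For LPS against medium, which asks what the stimulus alone did, 3 of the 32 measured genes were at least 2-fold higher (Id2, Marco and Vcan) and 1 was lower (Cebpa), while 28 were neither. Over all 13597 genes measured in that comparison, 8.07% were higher and 7.6% lower, so the list's share of higher genes lies near the background. The median difference was 0.41 for the 9 measured dendritic cell genes, 0.10 for the 5 shared genes and -0.12 for the 18 measured macrophage and monocyte genes, beside -0.00 for all genes. The dendritic median was thus 0.53 above the macrophage median, a gap that fell to 0.25 when the probes of a gene were averaged. Within the macrophage list 8 genes lay above 0 and 10 below, beside 6789 and 6808 of all genes. Marco at 2.56 and Maf at -0.83 were at the ends of the list. Of the 4 calls, Marco and Cebpa held under each of 7 alternative processings, while Id2 and Vcan did not. With 1 probe each, always well above background, Marco and Cebpa could not change without the filter or with the probe mean. At a lower threshold of 1.5-fold, 11 members were higher and 5 lower, beside 15.6% and 18.3% of all genes.

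For LA against medium, which asks what LA did without a stimulus, 2 of 32 were higher (Dpp4 and Mertk) and 1 was lower (C1qa). The background was 3.06% higher and 3.39% lower of 14561 genes, near the list's shares. The median was -0.41 for dendritic cell genes, -0.40 for macrophage and monocyte genes and 0.19 for shared genes, beside 0.02 for all genes. With normexp the dendritic median was -0.01 and the macrophage and monocyte median -0.36. The further dendritic cell list below went the other way, with a median of 0.14 over 29 measured genes, 19 above 0 and 10 below. Of the 18 macrophage and monocyte genes 16 lay below 0, the exceptions being Mertk (1.02) and Ly6c2 (0.04). Of all 14561 genes 7022 lay below 0, as did 17 of 26 measured genes of the further macrophage and monocyte list below. None of the 3 calls held under all alternatives: without Agilent's background correction, with normexp in its place, all 3 were under 2-fold, and the mean of both Dpp4 probes was -0.13. At 1.5-fold, 4 members were higher and 8 lower, beside 11% and 10.9% of all genes.

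The comparison of LPS with LA against LPS asks what LA did to stimulated cells, and 10 of 32 were at least 2-fold lower and 2 were higher. Over all 13629 genes, 12.4% were lower and 11.5% higher. The lower genes were Zbtb46, Dpp4, Batf3 and Id2 of the dendritic list, Cebpb of the shared list, and Adgre1, Axl, Marco, Msr1 and Vcan of the macrophage list. Cebpa and Sirpa were higher. The median was -0.67 for dendritic cell genes and -0.47 for macrophage and monocyte genes, beside 0.01 for all genes, and both stayed below 0 under each of the 7 alternatives. The further dendritic cell list below had a median of -0.08, with 13 of 28 measured genes above 0 and 15 below. The further macrophage and monocyte list had -0.41, with 8 of 25 above 0 and 17 below. The dendritic median thus depended on which genes were listed. Shared genes had a median of 0.24. Cebpa, Id2, Axl, Marco and Vcan kept their call under every alternative, and Zbtb46, Dpp4, Batf3, Cebpb, Sirpa, Adgre1 and Msr1 lost theirs under at least 1. Dropping the filter could change none of these values, and the probe mean could not change Cebpa, Id2 or Marco. With normexp, Zbtb46 stood at -0.72, Batf3 at -0.60 and Dpp4 at -0.59. The LPS array serves in this comparison and in that of LPS with medium with opposite sign, so an error of that array would enter both. At 1.5-fold, 14 members were lower and 4 higher, beside 21.7% and 22.3% of all genes.

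The comparison of LPS with LA against LA asks what the stimulus did in the presence of LA, and 1 of 32 was higher (Flt3) and 1 lower (Dpp4), beside 0.913% and 1.48% of 14903 genes. The median was -0.14 for dendritic cell genes, -0.16 for macrophage and monocyte genes and -0.04 for shared genes, beside -0.02 for all genes. Of the 18 macrophage and monocyte genes 16 lay below 0, but none by 2-fold. Of all 14903 genes 7842 lay below 0, as did 14 of 26 measured genes of the further macrophage and monocyte list. Neither call held everywhere: Flt3 was under 2-fold with normexp and Dpp4 with the mean of its probes. At 1.5-fold, 1 member was higher and 3 were lower, beside 4.11% and 5.34% of all genes.

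**Figure D2:**
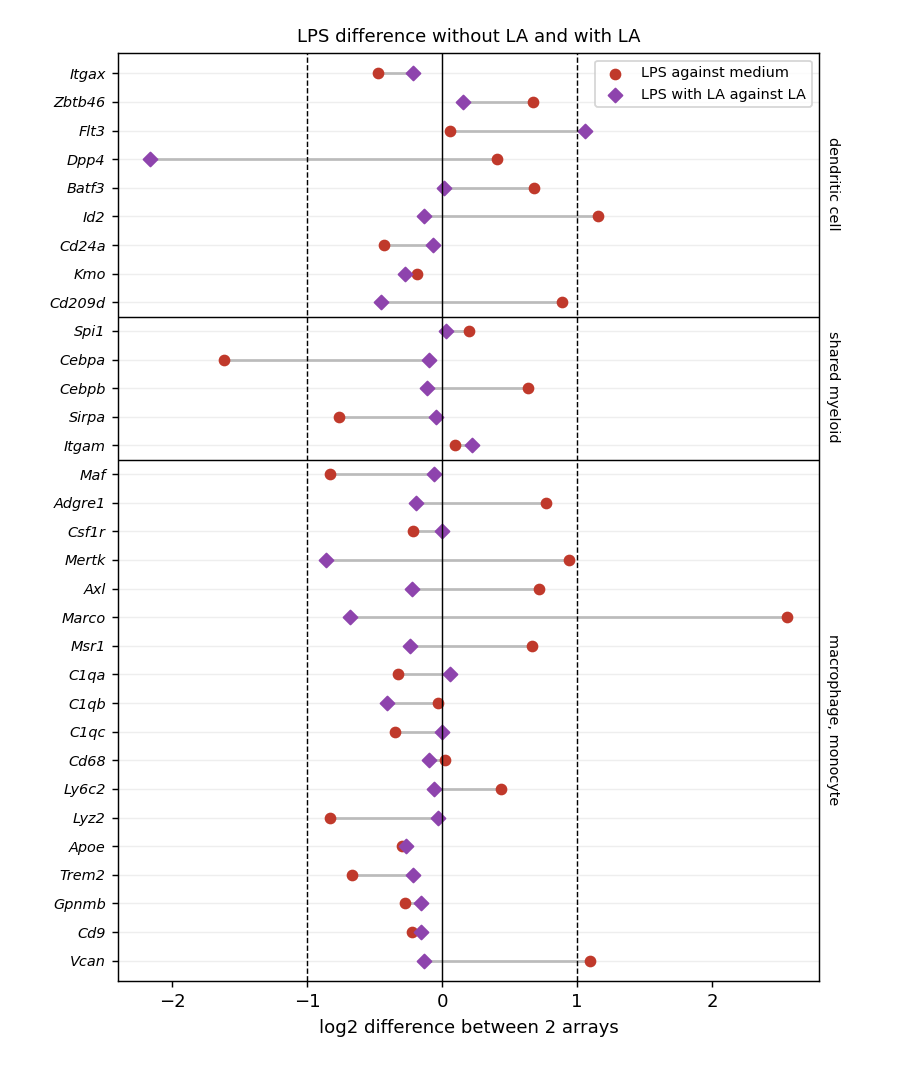
Log2 difference between 2 arrays for each identity gene, LPS against medium (circles) and LPS with LA against LA (diamonds), with dashed lines at 2-fold. Most diamonds lie near 0; Marco moves from 2.56 to -0.68, Cebpa from -1.61 to -0.10 and Id2 from 1.15 to -0.14.

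The LPS difference without LA and that with LA share no array and can be set side by side. Over the 32 genes the median size of the difference was 0.56 without LA and 0.15 with LA, beside 0.38 and 0.17 over all 13367 genes measured on the 4 arrays. Across the 32 genes the correlation of both differences was r = -0.26 and rho = -0.28, with the same sign in 18 genes. Over all 13367 genes r was 0.02 and rho -0.01, with the same sign in 6658. Genes are not independent replicates and these values are a description. The LA difference without LPS and its counterpart with LPS share no array either. Their median sizes were 0.49 and 0.67, r was 0.48 and rho 0.59, and 23 of 32 genes had the same sign. Over all genes r was 0.50, near that of the list, and 8999 of 13367 had the same sign.

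**Figure D3:**
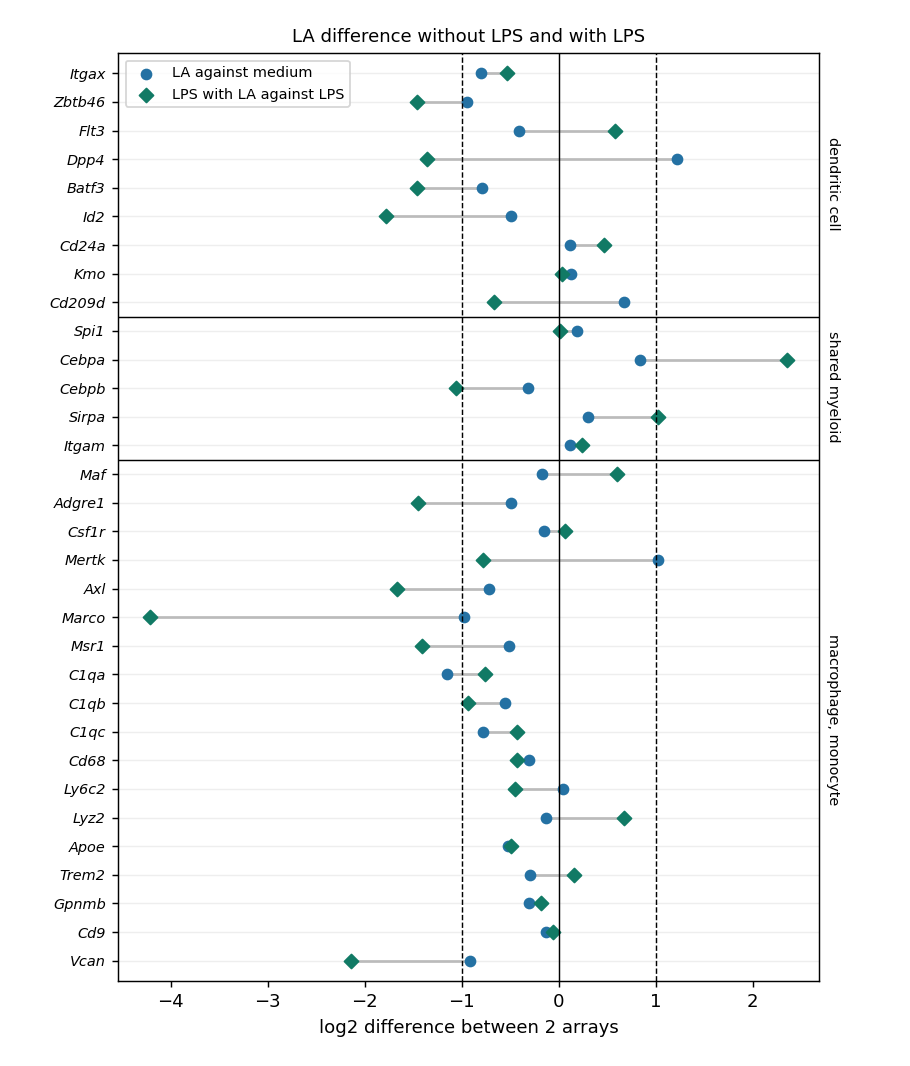
Log2 difference between 2 arrays for each identity gene for LA without LPS (against medium) and with LPS (against LPS alone), with dashed lines at 2-fold. Zbtb46, Batf3, Id2, Adgre1, Axl, Marco, Msr1 and Vcan lie left of 0 in both comparisons, and Dpp4, Mertk and Cd209d lie right of 0 without LPS and left of 0 with it.

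Ligands and partners of the identity genes lay mostly within 2-fold. Cd47, the ligand of SIRPA, was at 4.38, 9.33, 4.25 and 4.31, so it was 1.09 log2 units higher with LPS than in medium and 1.11 lower with LPS and LA than with LPS. This is the reverse of its receptor, which was lowest with LPS. Gas6, the bridge between apoptotic cells and AXL, was at 2.31, 1.21, 1.87 and 1.66, lowest where Axl was highest, and Pros1, protein S, was at 1.16, 1.17, 1.27 and 0.991. Flt3l, the ligand of FLT3, was at 1.81, 1.03, 2.09 and 1.72, and Csf1, a ligand of CSF1R, at 4.85, 4.18, 3.47 and 3.77. The integrin partner Itgb2 was at 149, 95.7, 164 and 152, lowest with LPS, and Itgb7 at 366, 391, 431 and 412. Tyrobp, the adaptor of TREM2, stayed at 181, 185, 180 and 188, and the C1q proteases C1ra and C1s1 were at 1.63, 2.15, 1.63 and 1.87, and at 0.084, 0.101, 0.124 and 0.154.

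Cdh1, E-cadherin and the ligand of the integrin ITGAE, was 1.12 log2 units higher with LA than in medium; it was not well above background with LPS and at least 2.23-fold higher with LPS and LA. Ada, the adenosine deaminase that DPP4 binds in humans, was likewise not well above background with LPS alone and at least 2.10-fold higher with LPS and LA. Both genes had a signal under 50 on every array. Such bounds use the lowest relative signal marked well above background on the dim array. Unmarked genes can read higher, such as Itgae at 0.104 with LPS. The bounds are thus approximate, and those of Cdh1 and Ada lie near 2-fold. Xcl1, the ligand of XCR1, was above background with LPS alone, where it was at least 1.63-fold higher than in medium. Il34, another ligand of CSF1R, was marked well above background on the 2 arrays with LA. Its relative signal was 0.054, 0.096, 0.077 and 0.072, dim throughout and highest with LPS alone. Tyro3, a relative of AXL, was above background on no array. Of the partners measured in each comparison, 1 of 10 was at least 2-fold higher with LPS than in medium (Cd47) and 1 of 12 with LA than in medium (Cdh1). These counts stand beside 8.07% and 3.06% of all genes. With LPS and LA, 1 of 10 was lower than with LPS (Cd47), beside 12.4% of all genes. From LA, 0 of 13 differed by 2-fold, beside 0.913% higher and 1.48% lower of all genes.

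Further dendritic cell genes, a list of 31, had 6 higher and 2 lower of 29 measured for LPS against medium, 1 and 3 of 29 for LA against medium, 3 and 9 of 28 for LPS with LA against LPS, and 1 and 0 of 29 for LPS with LA against LA. Over all genes the shares higher and lower were 8.07% and 7.6%, 3.06% and 3.39%, 11.5% and 12.4%, and 0.913% and 1.48%, in that order. Among genes well above background on both arrays, the extremes with LPS were Mycl (2.35) and Tcf4 (2.10) above and Naaa (-1.10) and Cd209a (-1.03) below. Nfil3 (-1.60) and H2-Aa (-1.17), a chain of MHC class II, were lowest of those with LA alone, where Ikzf1 (1.01) and Fscn1 (0.92) were highest. With LPS and LA against LPS, Tcf4 (-3.22) and Ccr7 (-1.93), the receptor that guides mature dendritic cells to lymph nodes, were lowest of those measured on both arrays, and Cd209a (1.07) and Csf2rb (1.01) highest. Against LA alone, Relb (-0.40) and Mycl (-0.37) were lowest and Ccr9 (1.02) and Klf4 (0.64) highest. Clec9a, a receptor of the cross-presenting branch, was above background in medium and not with LPS; with LPS and LA it was at least 2.21-fold higher than with LPS. Cd207, the lectin langerin, was not well above background on either array with LA. It was at least 4.11-fold lower with LA than in medium and at least 5.20-fold lower with LPS and LA than with LPS, beyond the fold of Nfil3 and of Ccr7. Signals were under 50 on every array for Ccr9 and Clec9a. They were under 50 on at least 1 array for Mycl (16.2 in medium), Cd209a (49.5 with LPS) and Cd207 (41.0 in medium).

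Further macrophage and monocyte genes, also a list of 31, had 6 higher and 3 lower of 25 for LPS against medium, 0 and 2 of 26 for LA against medium, 4 and 7 of 25 for LPS with LA against LPS, and 0 and 0 of 26 for LPS with LA against LA. The shares over all genes are those given for the further dendritic cell genes. The highest and lowest given here are of genes well above background on both arrays of the comparison. With LPS, Fcgr1 (2.39), an Fc receptor, and Nr4a1 (2.35) were highest and the chemokine receptors Ccr2 (-1.97) and Cx3cr1 (-1.94) lowest. With LA alone, lipoprotein lipase, Lpl (-2.15), and Cx3cr1 (-1.58) were lowest and Ccr2 (0.67) was highest. With LPS and LA against LPS, Fcgr1 (-2.83) and Cd14 (-2.42), a co-receptor for LPS, were lowest and Ccr2 (2.64) and Stab1 (2.10) highest. Against LA alone, Mrc1 stood at -0.40 at the low end, and Treml4 (0.48) and Cx3cr1 (0.31) were highest. Vsig4, a complement receptor, was above background on the array with LA alone and on no other. There it was at least 4.30-fold higher than in medium, and with LPS and LA at least 4.66-fold lower than with LA. Signals were under 50 for Stab1 with LPS (27.2), Mrc1 with LPS and LA (42.4) and Vsig4 even with LA alone (43.1).

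Markers of other cells were present and moved with the conditions. Sums cover the genes of a list that were well above background on at least 1 array. The dendritic list (9 genes) summed to a relative signal of 21.7, 21.2, 22.0 and 19.6. The shared list (5 genes) summed to 364, 385, 395 and 440 and the macrophage list (18 genes) to 503, 465, 398 and 356. These sums are led by the brightest probes, such as those of Apoe and Itgam. All 15 neutrophil and precursor markers were well above background on all 4 arrays, and their sum was 722, 805, 929 and 962. Of these 15, 1 was 2-fold higher with LA than in medium, beside 3.06% of all genes. With LPS and LA 8 were higher than with LPS (median 1.06), beside 11.5% of all genes. Markers of mast cells, basophils and eosinophils (10 of 12 on all arrays) summed to 65.3, 97.2, 120 and 128. The other lists were dim: lymphocyte and NK markers (7 of 9 with a probe on at least 1 array; Ms4a1 and Ncr1 on none) summed to 2.08, 1.91, 2.41 and 2.09, and stromal and endothelial markers (9 of 10; Cdh5 on none) to 2.89, 4.42, 2.56 and 3.37. The sum of the 18 macrophage genes was lowest on the arrays where the neutrophil and mast cell sums were highest. That of 29 of the 31 further macrophage and monocyte genes was 485, 462, 471 and 469, within 0.953 to 0.971 of medium on the treated arrays. The part of a changed mixture of cells in the differences above was not tested.

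**Figure D4:**
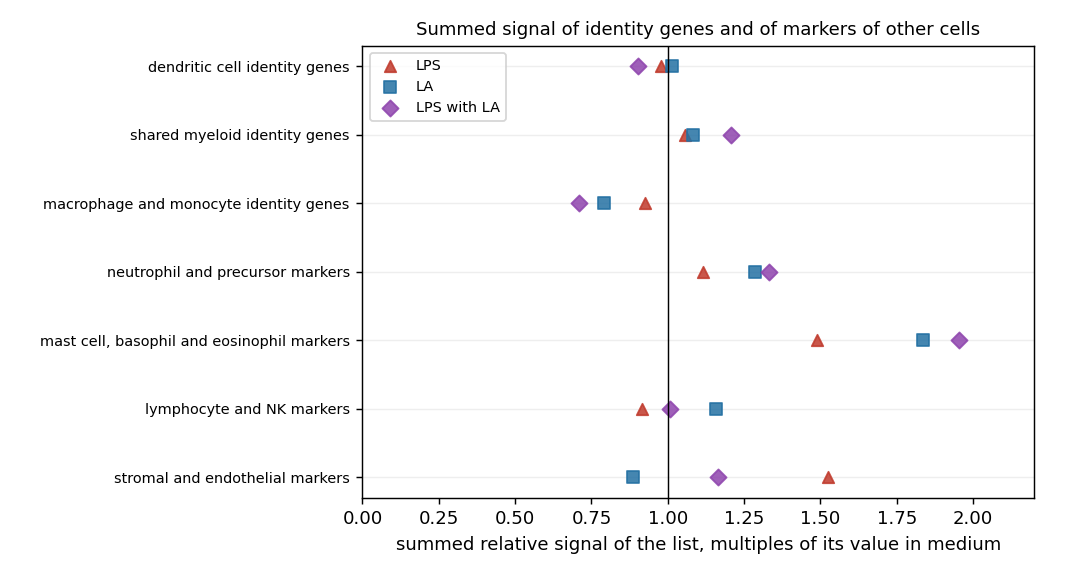
Summed relative signal of each gene list on the LPS, LA, and LPS with LA arrays as a multiple of its sum in medium. Sums cover genes well above background on at least 1 array. The macrophage and monocyte sum lies at 0.926, 0.791 and 0.709 of medium, and that of mast cell, basophil and eosinophil markers at 1.49, 1.84 and 1.95.

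Several probes of a gene serve as a check within the arrays. For LPS against medium the probes of the 12 genes with more than 1 measured probe spanned a median of 0.35 log2 units, and for LPS with LA against LPS 0.58. Spans over 1 log2 unit occurred in Csf1r, Dpp4 and Vcan for LPS with LA against LPS, and in Vcan for LA against medium, where its probes gave -0.91, -0.32 and 0.13. The Dpp4 probes differed in sign for LPS with LA against LPS, with -1.35 and 0.14, and so did the Itgax probes, with -0.53 and 0.09. Axl and Msr1 were 2-fold higher with LPS than in medium by their second probes (1.07 and 1.13) but not by their brightest.

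**Figure D5:**
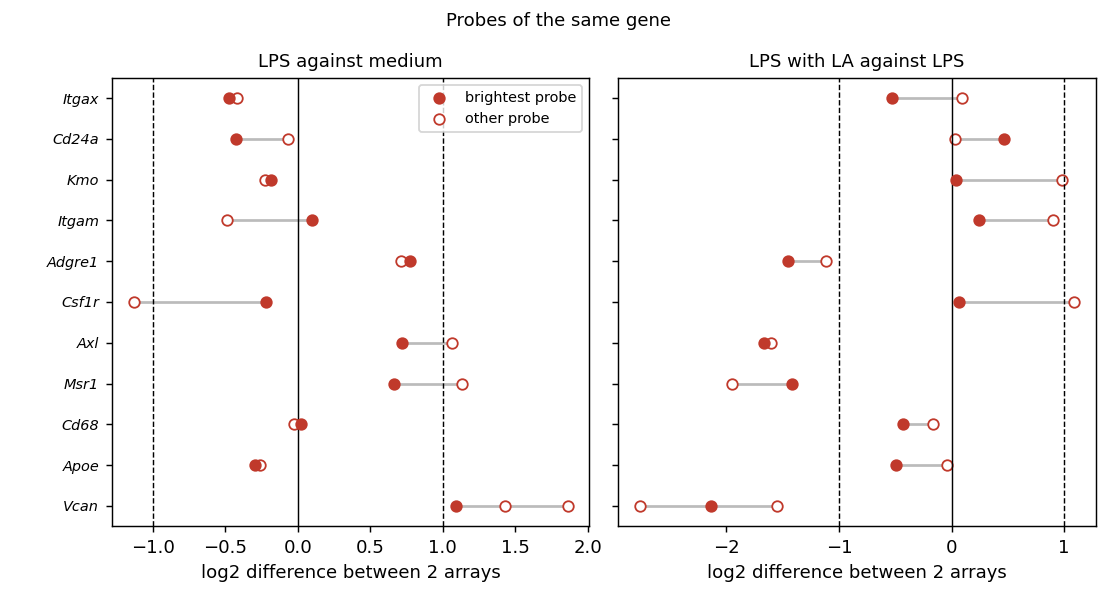
Log2 difference between 2 arrays for identity genes with several probes well above background on all 4 arrays, brightest probe filled and others open, with dashed lines at 2-fold. All probes of Adgre1, Axl, Msr1 and Vcan lie past 2-fold lower for LPS with LA against LPS, while those of Csf1r and Itgam are apart.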

How the data were processed

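Total RNA of BMDCs under 4 conditions, with 1 array each, was labelled with Cy3 and hybridised to Agilent arrays on 1 slide with 1 scan time, per the labels and the file headers. Per the file headers the deposited intensity is Agilent's processed signal (Feature Extraction 12.0.3.1; the submitters' processing notes name 11.5.1.1), a linear value after background subtraction with no scaling from array to array. The authors' deposited table holds 31529 spots as the same intensity times 1 constant per array.

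Control spots and spots marked as outliers (129 to 154 per array) were left out. Signals were divided by each array's 75th percentile (from 144 to 176) and taken to log2. Of 56605 probes, 33767 matched 1 RefSeq symbol through their transcript. Each gene was represented by the probe with the highest mean signal. The headers name the mm9 build and the RefSeq tables GRCm38.p6, so the array coordinates were not used. For a gene well above background on 1 of 2 arrays, a bound was given against the dim array's own value or its detection limit, whichever was larger. The detection limit was the lowest relative signal of a probe marked well above background on that array. Unmarked probes can read higher, so the bounds are approximate.

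All members and their ligands or partners are named, with the 2 highest and 2 lowest differences of the 2 wider lists; The 2 highest and lowest are of genes well above background on both arrays. Clec9a, Cd207 and Vsig4 were added after their values were seen, and 1 gene of those lists is not reported here. Members and lists were chosen with earlier results of these data known. The alternatives were quantile normalization, median scaling, a percentile over detected probes alone, normexp (limma 3.58.1), no filter on dim probes, the mean of all probes, the authors' table, and a threshold of 1.5-fold. Scripts used Python 3.11.15 and pandas 2.3.3 and were tested on simulated data.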

Additional observations from a re-analysis of the deposited data

Results flagged for a closer look

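Of the 32 measured genes, 14 had LPS differences of opposite sign without and with LA, and 9 had LA differences of opposite sign without and with LPS. Of all 13367 genes measured on the 4 arrays, 6709 and 4368 did, so neither share of the list exceeded that of all genes. In 4 members, named here, the values on both sides of 0 were at least 1.5-fold. With 1 array per condition the difference between the differences was not tested. Dpp4 was 1.22 log2 units higher with LA than in medium and stood at -1.35 for LPS with LA against LPS. Cd209d stood at 0.67 and -0.67 in the same comparisons, and Mertk at 1.02 and -0.78. For LPS, Mertk stood at 0.94 without LA and -0.86 with LA, and Marco at 2.56 and -0.68. The Dpp4, Mertk and Marco signals were under 50 on at least 1 array.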

How the results depend on the processing

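Of 21 calls of a member at 2-fold, 7 held under each of 7 alternatives: Cebpa and Marco for LPS against medium, and Cebpa, Id2, Axl, Marco and Vcan for LPS with LA against LPS. Dropping the filter could not change these values, since the measured members were well above background on all 4 arrays. Averaging probes could not change Cebpa, Id2 or Marco, which had 1 probe each. Of 896 member values, 26 lost a call, 14 gained one and 1 called value turned sign, Dpp4 for LA against medium at -0.13 with the mean of all probes. Of the 128 differences of a gene in a comparison, 22 that were not called also lay on both sides of 0 across the settings. Causes were not tested.

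For LPS against medium, the 3 higher members became 1 with quantile normalization, normexp and the authors' deposited table, and 11 at 1.5-fold; the 1 lower became 4, 3 and 5 with quantile normalization, the authors' deposited table and 1.5-fold. For LA against medium, the 2 higher became 1 with median scaling and the mean of all probes, 0 with normexp and 4 at 1.5-fold. The 1 lower became 2 with quantile normalization, 3 with median scaling, 0 with normexp and the authors' deposited table, and 8 at 1.5-fold. For LPS with LA against LPS, the 2 higher became 1 with median scaling and normexp, 5 in the authors' deposited table and 4 at 1.5-fold. For LPS with LA against LA, the 1 higher became 0 with normexp, and the 1 lower became 2 with no filter, 0 with the mean of all probes and 3 at 1.5-fold.

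The dendritic minus macrophage median for LPS against medium (0.53) was 0.86 with quantile normalization, 0.40 with normexp, 0.44 with no filter and 0.25 with the mean of all probes. For LA against medium (-0.01) it was -0.21 with quantile normalization, 0.35 with normexp and -0.10 with no filter. With LPS and LA against LPS (-0.19) it was -0.46, -0.0494 and -0.85 in that order. With LPS and LA against LA (0.02) it was 0.10 with normexp and 0.11 with the mean of all probes.

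The authors' deposited table moved the median of all genes to 0.43 for LPS with LA against LPS, -0.24 for LPS against medium and 0.17 for LA against medium; there the members' median for LPS with LA against LPS was -0.05, beside -0.47 in the scaling used. Of all genes called for LPS against medium, 51.5% were higher, against 68.0% with normexp, 40.9% with the percentile over detected probes and 30.2% in the authors' deposited table. For LA against medium 47.4% became 29.9% with normexp and 65.6% in the authors' deposited table. With LPS and LA against LPS 48.2% became 36.2%, 61.0% and 76.7% with those 3, and for LPS with LA against LA 38.2% became 25.8% with normexp. No paired analysis was possible because each condition has 1 array.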
